A study of Mus musculus with 9 samples.

Results

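Adult adrenal medulla was compared with the embryonic dorsal root ganglion in 6 of the 9 samples of a mouse series on neural crest cells and their descendants. The 3 samples labelled P90 are neural crest derived cells of the adrenal medulla gland of adult mice at postnatal day 90, and the 3 labelled E13.5 are neural crest derived cells of the dorsal root ganglion at embryonic day 13.5. Cells were taken by laser capture microdissection, which cuts chosen areas out of a tissue section under the microscope, total RNA came from a PicoPure kit, and 400 ng of it was turned into biotin-labelled cRNA and hybridised to 1 Affymetrix mouse array per sample. The labels give no strain, genotype, treatment or sex, name the 3 samples of a stage biological replicates, and do not say how many animals went into each. Stage and tissue change together, so age and organ cannot be told apart in any difference below, and p-values measure the spread between these samples. The other 3 samples, E8.5 embryos at neural tube closure, entered the fit to help estimate the spread, and their values also counted in choosing which genes and probe sets were bright enough to test.

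The neural crest is a migratory embryonic population that gives rise to both tissues. Some of its cells stay beside the spinal cord and become sensory neurons and glia of the dorsal root ganglia, which in mid-gestation grow axons and still contain dividing progenitors. Others reach the adrenal gland and become chromaffin cells, endocrine cells that store adrenaline and noradrenaline in granules and release them when the splanchnic nerve is active. The medulla is enclosed by the steroid-producing adrenal cortex, and cortical glucocorticoid maintains the last enzyme of adrenaline synthesis in chromaffin cells.

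Of 13748 genes tested with limma on log2(signal + 16), where the added 16 understates changes of dim genes, 487 (3.54%) were higher and 816 (5.94%) lower in the adult medulla than in the ganglion at a Benjamini-Hochberg adjusted p under 0.05. These shares are the background for every count below, and differences are given on that log2 scale as P90 minus E13.5, with the fit's standard error (SE). Of the 1303 called genes (9.48% of those tested in either direction), 1295 had arrays that did not overlap between the stages, and 211 of the higher and 424 of the lower genes changed at least 4-fold on this scale. Over all genes tested, the median difference was -0.05. In bulk samples, fewer cells of a type and less RNA per cell cannot be told apart. A gene was tested if its signal passed 26.1 on 3 of the 9 arrays, and 86 genes passed only through the adult arrays, of which 71 were called higher, while 51 passed only through the ganglion arrays, of which 44 were called lower. Such genes had to differ to be tested, among those named below Adm, Tap2, Psmb8, Rtp4, Ifit1, C1ra, Cd14 and Junb for the medulla and Cntn2 and Ebf2 for the ganglion. With no filter 17923 genes were tested, of which 2.54% were higher and 4.14% lower, and the counts without the filter are given with the immune lists. In the other lists with such genes there were then 7 lower and 1 higher of 18 sensory transcription factors, 5 lower of 32 axon guidance genes, 2 lower of 31 Hox genes, 1 higher and 1 lower of 11 neuropeptide genes and 3 higher of 22 immediate early genes.

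In each stage 1 array stood apart. On E13.5 replicate 2, the Actb control probe set at the 3' end of the transcript exceeded the 5' control (a measure that grows as RNA degrades) by a log2 value of 7.0 against 0.85 and 2.87 on the other ganglion arrays and 1.36 to 4.09 on the medulla arrays. Over probe sets, ganglion replicates 1 and 2 correlated at r = 0.877, 1 and 3 at 0.958 and 2 and 3 at 0.943. Between the stages, r ran from 0.836 to 0.910, so the first ganglion pair was no more alike than some pairs between stages. P90 replicate 1 correlated with the other medulla arrays at r = 0.922 and 0.915, whereas those 2 correlated at 0.98. It gave lower signals for chromaffin genes such as Pnmt and higher signals for genes of steroid-producing cells such as Fdx1. On this array, higher signals were also seen for genes outside that group. Among genes with a value on every compared array, it was the highest adult array for 38 of 39 in oxidative phosphorylation. The same was true of 14 of 15 antioxidant and 8 of 8 housekeeping genes. Its Actb log2 value of 1.36 was the lowest of the medulla arrays. Its mean signal was the highest, at 306 against 225 and 175. Counts over all genes were 480 higher and 1223 lower genes without E13.5 replicate 2, and 480 higher and 838 lower without P90 replicate 1. With both left out they were 749 and 2653, and the median difference over all genes fell to -0.32, so counts of lower genes in that fit sit on a general downward shift.

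Some cells of the deposited table are empty, and they matter here because they lie on genes that define the 2 tissues. A probe set was empty on all 3 medulla arrays for 85 of 18193 annotated genes (0.467%) and on all 3 ganglion arrays for 189 genes (1.04%). Of the 85, 48 were tested through another probe set, and 25 of these were called higher and 23 not called in the medulla. Of the 189, 104 were tested in the same way, and 42 were called lower, 1 higher and 61 not called. The reason for the empty cells is not stated, and genes without enough values were left untested rather than filled in.

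**Figure D1:**
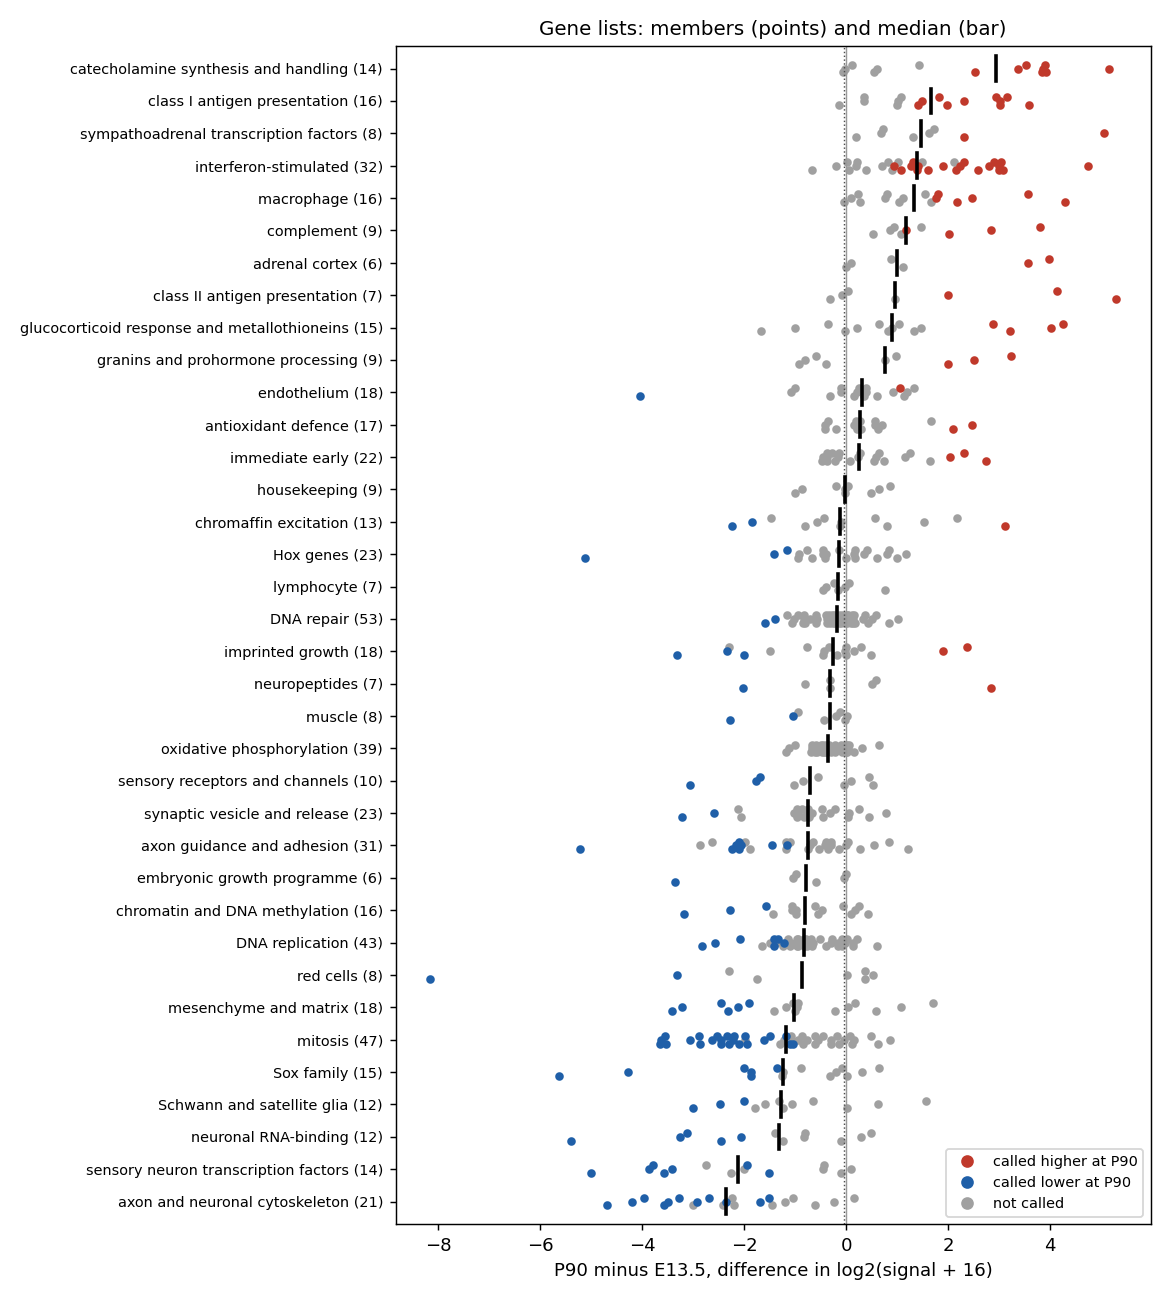
Differences between the P90 and E13.5 arrays in log2(signal + 16), P90 minus E13.5, for the tested members of 36 gene lists (points, coloured by call) with the list median (black bar); the number in brackets is the number of tested members, and the dotted line is the median of all genes at -0.05. Catecholamine, class I antigen presentation and interferon-stimulated genes lie to the right, with medians of 2.94, 1.66 and 1.39, and axon cytoskeleton and sensory transcription factor genes to the left, with medians of -2.35 and -2.12.

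The adult samples carried the catecholamine synthesis genes of chromaffin cells. Of 14 tested genes for making, packing and breaking down catecholamines, 8 were called higher in the medulla and the other 6 did not pass, with a list median of 2.94. Pnmt, the enzyme that converts noradrenaline to adrenaline, gave signals of 633, 3749 and 3289 on P90 replicates 1 to 3 and 44.4, 31.5 and 46.1 on E13.5 replicates 1 to 3. The stages did not overlap, and P90 replicate 1 lay well under the other medulla arrays. Its difference was 5.16 (SE 0.56, limma adjusted p = 0.000242), the largest rise among genes without an empty value. Dbh, which makes noradrenaline from dopamine inside the granule, gave 305, 2172 and 2072 on the medulla arrays and 54.7, 73.5 and 50.9 on the ganglion arrays, a difference of 3.92 (SE 0.61, limma adjusted p = 0.00192). Again every medulla array lay above every ganglion array and P90 replicate 1 was the lowest of the adult samples.

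The enzymes further up the pathway moved the same way. Ddc, which makes dopamine, gave 564, 2600.4 and 2363 in the medulla and 158, 83.5 and 47.3 in the ganglion, a difference of 3.90 (limma adjusted p = 0.0014). Gch1, which starts the synthesis of the tetrahydrobiopterin cofactor, gave 1901, 1851 and 1471 against 86.4, 138 and 99.3, a difference of 3.84 (limma adjusted p = 0.000118). P90 replicate 1 was not low for Gch1. Among the 12 genes of this list with a value on all 6 arrays, P90 replicate 1 was the lowest adult array for 6 and the highest for 5. Th, the rate-limiting tyrosine hydroxylase, had an empty value on P90 replicate 1 and gave 4441 and 4437 on the other 2 arrays, against 633, 562 and 1239 in the ganglion. Its difference of 2.52 (limma adjusted p = 0.00483) therefore rests on 2 adult samples, and the ganglion had a clear Th signal of its own. Slc18a1, the vesicular monoamine transporter of endocrine granules, rose by 3.36, Cyb561, which supplies electrons for noradrenaline synthesis, by 3.87, and Maob, which degrades amines, by 3.52 (limma adjusted p = 0.00238, 0.00507 and 0.00963). Cyb561 was also empty on P90 replicate 1, and leaving out E13.5 replicate 3 ended the call of Maob (adjusted p = 0.0525). The noradrenaline transporter Slc6a2 gave 133, 106 and 109 in the medulla and 64.6, 112 and 157 in the ganglion and did not pass the test. All 8 catecholamine calls were present without P90 replicate 1 and also without E13.5 replicate 2.

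Granins and the enzymes that process prohormones make and cut the peptide cargo of the granule. Of 9 tested granin and prohormone processing genes, 3 were called higher and 6 did not pass. Chga, the main chromogranin of chromaffin granules, gave 4368, 7120.4 and 7521 against 1939, 742 and 848, and Chgb gave 6419, 8209.9 and 7815 against 1727, 356 and 745. Both were already bright in the ganglion, with differences of 2.51 and 3.24 (limma adjusted p = 0.00386 and 0.00314), and the stages did not overlap. Pcsk1, a convertase that cuts prohormones, gave 158, 927 and 700.3 against 99.7, 127 and 94.6, a difference of 2.0 (limma adjusted p = 0.0356), and its call was lost in 7 of the 9 fits that left out 1 array, those without P90 replicate 1 and E13.5 replicate 2 being the exceptions. Scg3 and Vgf, other granule proteins shared with neurons, overlapped between the stages, at 172, 1453 and 969.6 against 1680.1, 499.7 and 1677 for Scg3 and 80.8, 614 and 559 against 721, 567 and 547 for Vgf.

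Of 8 tested sympathoadrenal transcription factors, 2 were called higher. Gata2 had an empty value on P90 replicate 1 and gave 2865 and 2496 on the others, against 78.1, 65.1 and 53.3 in the ganglion, a difference of 5.06 (limma adjusted p = 4.59e-05). Egr1, an immediate early factor that is also an activator of the Pnmt gene, gave 1090.1, 1929 and 2669 against 871, 188 and 249, a difference of 2.30 (limma adjusted p = 0.0252), and lost its call without E13.5 replicate 2, E13.5 replicate 3, P90 replicate 2 or P90 replicate 3 (adjusted p up to 0.132). The count of this list moved from 5 of 8 without P90 replicate 1 to 1 of 8 without E13.5 replicate 3, and to 0 of 7 without P90 replicate 2 or P90 replicate 3. Phox2a, a determinant of the sympathoadrenal lineage, gave 101, 418 and 333 against 39.6, 103 and 57.1 and did not pass (difference 1.73, limma adjusted p = 0.0646). Insm1, an endocrine differentiation factor, gave 56.3, 1449 and 934 against 167, 131 and 227, so that 2 adult samples lay above the ganglion and P90 replicate 1 below it. Eya1, a transcriptional cofactor of eye, ear and kidney development that lay outside these lists, was among the 10 largest rises, at 236, 1138 and 918 against 40.3, 10.9 and 37.2 (difference 3.91, limma adjusted p = 0.00246), and its call was lost without E8.5 replicate 1 or E8.5 replicate 3 (adjusted p up to 0.0896). Of the 3 Eya1 probe sets with values, 2 were higher in mean in the medulla.

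The tested peptides, receptors and channels of chromaffin cells did not move as a group. Of 12 annotated neuropeptide genes, 5 were not tested: Npy, Penk, Pdyn, Sst and Calcb. Npy was empty on all 3 medulla arrays and gave 43.3, 85.5 and 50.8 in the ganglion. The nicotinic receptor subunit Chrnb4 was not tested either. Among 7 tested neuropeptide genes, Adm rose and Adcyap1 fell. Adm, which encodes the vasodilator adrenomedullin, gave 31, 269 and 282 against 5.07, 7.79 and 6.01 (difference 2.83, limma adjusted p = 0.00725), and it was not tested in the fits without 1 of the P90 arrays, where too few arrays passed the filter on dim signals. Adcyap1, the gene of the PACAP peptide of sensory and preganglionic neurons, gave 65.2, 59.6 and 47.8 against 432, 135 and 372 (difference -2.02, limma adjusted p = 0.00739), with an adjusted p of 0.0503 without E13.5 replicate 3. Galanin (Gal) was as bright in 2 adult samples as in the ganglion, at 621, 3099 and 2466 against 3098, 1090.3 and 2733. Among 13 genes for chromaffin excitation, the PACAP receptor Adcyap1r1 rose, at 69.2, 1168 and 946 against 17.3, 29 and 81.7 (difference 3.12, limma adjusted p = 0.0325), and the potassium channel subunit Kcnmb2 and the calcium channel Cacna1h fell by 2.25 and 1.84 (limma adjusted p = 0.0419 and 0.0239). These 3 calls were lost in 8, 7 and 4 of the 9 fits that left out 1 array. P90 replicate 1 overlapped the ganglion for Adcyap1r1. Chrna3, a subunit of the nicotinic receptor through which the splanchnic nerve drives chromaffin cells, gave 63.2, 1069 and 734 against 23.6, 95.9 and 145 and did not pass (limma adjusted p = 0.148). On P90 replicate 1 the signal was the lowest of the adult samples for 11 of the 13 excitation genes, against 28% of all genes with a value on the 6 arrays.

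A few genes of the adrenal cortex were also called higher on the adult arrays. Of 12 annotated cortical genes, 7 could not be read on any of the 3 medulla arrays in at least 1 probe set, including Star, Cyp11b1 and Hsd3b1 of steroid synthesis, and 6 were tested, of which Scarb1 and Fdx1 were called higher. Scarb1, the receptor that takes up cholesterol esters, gave 7157 and 3295 on P90 replicates 1 and 2 and an empty value on replicate 3, against 313, 302 and 272 in the ganglion (difference 3.97, limma adjusted p = 0.000444). Fdx1, the ferredoxin that feeds the mitochondrial steroid enzymes, gave 8173, 4787 and 4152 against 1112, 172 and 439 (difference 3.58, limma adjusted p = 0.0033). P90 replicate 1 was the highest adult array with a value for both, as it was for 54.9% of the 12948 genes with a value on all 6 arrays, and it was the lowest for Pnmt and Dbh. It was also the highest adult array for 38 of 39 oxidative phosphorylation genes and 14 of 15 antioxidant genes. This order was thus also seen in lists other than the cortical one, and its cause was not tested. Without P90 replicate 1 the list had 1 call among 5 tested genes, and without P90 replicate 2 it had 1 among 2. Cyp11a1, which makes pregnenolone, was tested through a dim probe set at 73.2, 26.2 and 16.3 against 32.2, 28.7 and 41, while its probe set with values of 1.0 to 1.86 in the ganglion was empty on all medulla arrays.

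Among the 10 largest rises, 2 belong to steroid handling. Hsd11b1, which regenerates active glucocorticoid, gave 2533, 934 and 430.4 against 77.9, 29.9 and 14.3, a difference of 4.34 (SE 0.57, limma adjusted p = 0.000709). Tspo, a mitochondrial outer membrane protein abundant in steroid-producing cells, gave 2335, 870.2 and 649.9 against 96.7, 45.9 and 38.6, a difference of 3.94 (SE 0.48, limma adjusted p = 0.000417). For both, the stages did not overlap and P90 replicate 1 was the highest. The part of cortical cells in these rises was not tested.

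**Figure D2:**
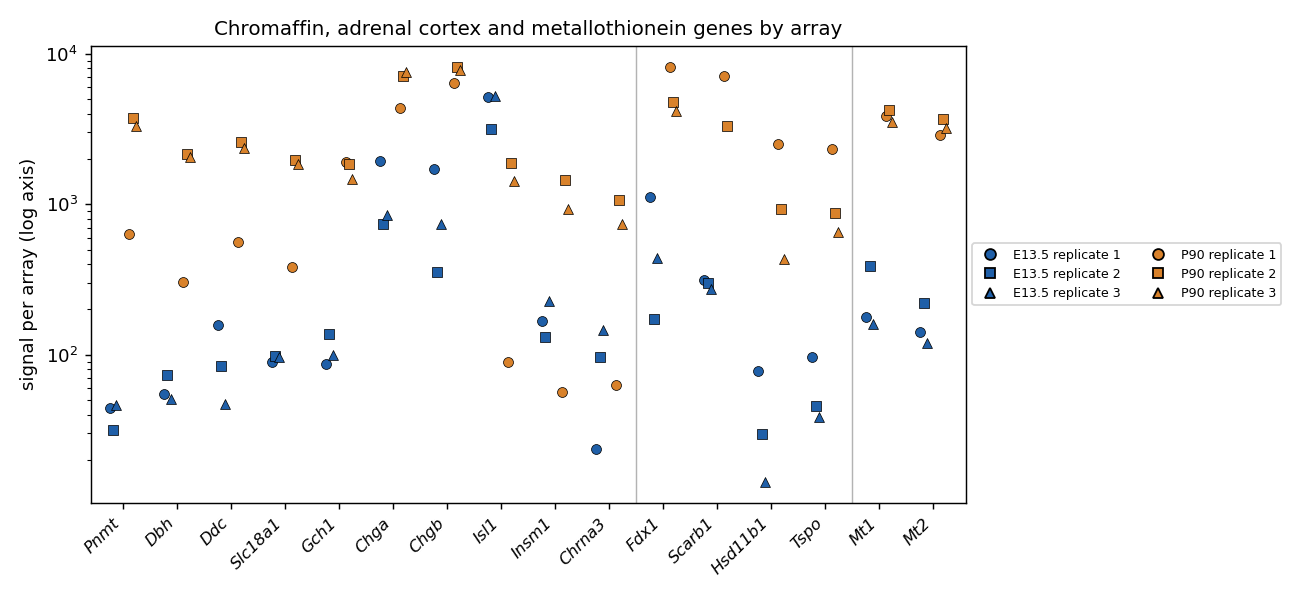
Signal per array (log axis) of chromaffin genes (left), adrenal cortex and steroid-handling genes (middle) and metallothioneins (right) on the 3 E13.5 arrays (blue) and the 3 P90 arrays (orange), with a marker shape for each replicate number; empty values are not drawn. P90 replicate 1 (orange circles) lies under the other adult arrays for Pnmt, Dbh, Ddc and Slc18a1 and above them for Fdx1, Hsd11b1 and Tspo.

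Metallothioneins and a few glucocorticoid-responsive genes were high in all adult samples. Of 15 tested genes of that list, 4 were called higher, and the list median was 0.91. Mt2 and Mt1, small metal-binding proteins induced by zinc and glucocorticoid, gave 2897, 3699 and 3237 against 141, 221 and 120.2 and 3846, 4203 and 3545 against 178, 387 and 160.2, with differences of 4.26 and 4.01 (limma adjusted p = 0.000382 and 0.000765). Both were nearly level across the 3 adult arrays, as were Gch1 and Chgb among the chromaffin genes. Klf9 and Zbtb16, transcription factors induced by glucocorticoid, rose by 3.21 and 2.88 (limma adjusted p = 0.00123 and 0.00889). Klf9 was highest on P90 replicate 1, at 4782, 2438 and 1311, and Zbtb16 was lowest there, at 351, 1636 and 994. Fkbp5 and Per1, other targets of the glucocorticoid receptor, gave 382, 495 and 557 against 343, 62.9 and 180.3 and 381, 412 and 453 against 225, 208 and 207 and did not pass the test (limma adjusted p = 0.113 and 0.0847).

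The second broad difference was in antigen presentation. Class I molecules display peptides from inside the cell to cytotoxic T cells: the immunoproteasome cuts proteins, the TAP transporter carries the peptides into the endoplasmic reticulum, and they are loaded onto a heavy chain paired with beta-2 microglobulin. Of 16 tested genes of this pathway, 10 were called higher in the medulla and 6 did not pass, with a median of 1.66, and 11 had every adult array above every ganglion array, against 9.59% of all genes. With no filter on dim signals, 11 of all 20 annotated members were called higher, with a median of 1.42. Without P90 replicate 1 there were 7 calls among 14 tested genes, and without E13.5 replicate 2 there were 10 among 16.

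Genes of peptide supply differed evenly across the arrays. Tap2, a chain of the transporter, gave 261, 172 and 231 in the medulla and 10.2, 9.10 and 12.3 in the ganglion, where it lay under the arrays' median signals of 39.2 to 46.4. Its difference was 3.15 (SE 0.22, limma adjusted p = 4.59e-05), and the adult arrays varied little, with P90 replicate 1 no exception. Tap2 and Psmb8 were among the genes tested only because the adult arrays were bright, and no fit that left out a P90 array tested them. Psmb8, a catalytic subunit of the immunoproteasome, gave 142, 199 and 183 against 9.43, 8.73 and 7.92 (difference 2.94, SE 0.22, limma adjusted p = 4.59e-05). Tap1 and Psmb9, the partners of those genes in the same complexes, gave 90.4, 105 and 78.5 against 15.8, 12.2 and 14.5 and 132, 125 and 85.1 against 18.7, 15.8 and 15.7, with differences of 1.83 and 1.97 (limma adjusted p = 0.000328 and 0.000328). Nlrc5, the transactivator of class I genes, rose by 1.49 and the loading factor Tapbp by 2.31 (limma adjusted p = 0.00602 and 0.00333). Of the probe sets with values, 3 of 4 for Tap1 and 1 of 2 for Tapbp were higher in mean in the medulla.

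The presented molecules themselves were brighter and more uneven. B2m, the shared light chain, gave 5134, 2612 and 1407 against 725, 145 and 292 (difference 3.01, limma adjusted p = 0.00707), and another of its probe sets was empty on all 3 adult arrays. H2-K1 gave 3631, 683 and 529.8 against 231, 87.5 and 85.3 and H2-D1 gave 2801, 893 and 749 against 281, 26.5 and 73, with differences of 3.02 and 3.59 (limma adjusted p = 0.0122 and 0.00579). For all 3 genes, P90 replicate 1 was the highest array, the commonest place of that array among all genes. Leaving out E13.5 replicate 3 ended the call of H2-K1 (adjusted p = 0.0746). Of the 9 H2-D1 probe sets with values, 7 were higher in mean in the medulla. Class I heavy chains are near-identical in sequence, so a probe set named for H2-K1 or H2-D1 may also read other members of the family. The general chaperones Calr and Canx, which load class I molecules among many other proteins, overlapped between the stages at 4287, 1924 and 1506 against 4459, 1450.2 and 2541 for Calr and 4016, 1880.4 and 1349 against 3187, 665 and 2254 for Canx.

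Class II genes, which present peptides from outside the cell and are typical of macrophages, dendritic cells and B cells, were called higher for 3 of 7 tested members. H2-Aa had an empty value on P90 replicate 1 and gave 2552 and 1327 on the others against 35.2, 35.8 and 23.8 (difference 5.30, limma adjusted p = 4.59e-05). H2-Eb1 gave 786, 1576 and 1046 against 33.4, 42.7 and 70.9 and H2-Ab1 gave 676, 1151 and 745 against 167, 198 and 225, with differences of 4.13 and 2.01 (limma adjusted p = 7.1e-05 and 0.00311). These are the chains of the presented dimer. The loading chaperone H2-DMa gave 36.4, 73.6 and 58.4 against 74.3, 49.5 and 54.6, and the class II transactivator Ciita gave 32.6, 15.9 and 12.7 against 21.8, 33.2 and 30.9, and neither passed the test.

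Interferon-stimulated genes, which cells switch on in response to interferon, rose in large number. Of 32 tested members, 19 were called higher and 13 did not pass, with a median of 1.39, and 24 had adult arrays wholly above the ganglion. Of the 19, 7 were tested only because the adult arrays were bright, Rtp4 and Ifit1 among them, and with no filter on dim signals 16 of all 37 annotated members were called higher, with a median of 1.27. Irf8, a transcription factor of macrophages and dendritic cells, gave 1429.7 and 777 on P90 replicates 1 and 2 and an empty value on replicate 3, against 25.9, 26.9 and 19.9 (difference 4.74, limma adjusted p = 5.41e-05). Rtp4 and Gbp7 gave 352, 260.3 and 128 against 11, 11.4 and 17.3 and 463, 546 and 351 against 34.4, 42.5 and 44.3, with differences of 3.07 and 3.04 (limma adjusted p = 0.000164 and 7.39e-05). Gbp7 and the immunity-related GTPases Igtp and Iigp1 act against intracellular pathogens. Igtp gave 532, 796 and 518 against 58.7, 48.8 and 80.9 and Iigp1 gave 218, 896 and 360.0 against 26.3, 57.5 and 34.3, with differences of 2.99 and 3.00 (limma adjusted p = 0.000139 and 0.00146). Ifit1, an antiviral RNA-binding protein, gave 32.4, 468 and 259 against 6.01, 12.8 and 8.79 (difference 2.89, limma adjusted p = 0.0127), with an adjusted p of 0.0636 without E13.5 replicate 3. The count of this list depended on single arrays, with 12 calls among 25 tested genes without P90 replicate 1, 6 among 23 without P90 replicate 2, 9 among 24 without P90 replicate 3 and 10 among 32 without E13.5 replicate 3.

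Because class I and interferon-stimulated genes moved together, the bases before their start sites were searched for the core of the interferon-stimulated response element (GAAA, any 2 bases, then GAAA) on both strands and with overlapping matches counted. The search used the 250 bases before the first start listed for each gene in RefSeq promoters of build GRCm38.p6. A match stood before 7 of the 15 called interferon-stimulated genes with a promoter in that table (46.7%), before 6 of the 11 that were not called (54.5%) and before 1 of 8 called class I genes, B2m (12.5%), while 821 of all 27025 promoters (3.04%) held it. The 150 bases before the start of 3 called genes that hold the motif are printed below 5' to 3' along the gene, with the matches in capitals, to show where it lies. A match is a description of letters and not evidence that a factor binds there.
B2m, chr2:122147537-122147686, plus strand: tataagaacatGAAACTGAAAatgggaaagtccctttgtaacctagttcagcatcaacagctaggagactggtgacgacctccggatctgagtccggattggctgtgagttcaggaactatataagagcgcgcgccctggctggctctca
Ifit1, chr19:34640739-34640888, plus strand: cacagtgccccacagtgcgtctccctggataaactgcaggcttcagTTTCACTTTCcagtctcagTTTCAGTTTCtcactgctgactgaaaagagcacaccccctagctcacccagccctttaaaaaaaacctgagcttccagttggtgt
Igtp, chr11:58199406-58199555, plus strand: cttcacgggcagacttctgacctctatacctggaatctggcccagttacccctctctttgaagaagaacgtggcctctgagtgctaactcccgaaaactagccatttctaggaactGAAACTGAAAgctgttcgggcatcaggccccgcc
The Ifit1 stretch holds 2 matches, both read on the opposite strand, and the others hold 1 each, within 34 bases of the start for Igtp.

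Some genes of macrophages and complement were also called higher in the adult samples, and no tested lymphocyte gene was called. Of 16 tested macrophage genes, 6 were called higher, and the signal summed over the 11 with a value on all 6 arrays was 3619 to 8674 in the medulla and 2904 to 3151 in the ganglion. Lyz1 and Lyz2, lysozymes of macrophages with near-identical sequences, were empty on P90 replicate 1 and gave 1959.5 and 951 for Lyz1 and 803 and 415 for Lyz2 on the others, against 165, 21.8 and 35.2 and 101, 11.6 and 23.5 in the ganglion (differences 4.29 and 3.56, limma adjusted p = 0.00123 and 0.00228). Of the 2 Lyz1 probe sets with values, 1 was higher in mean in the medulla, and another was empty on all adult arrays. C1qb, a chain of the complement starter made by tissue macrophages, gave 1243, 759 and 305 against 132, 114 and 78.7 (difference 2.47, limma adjusted p = 0.00515). The defining receptors Csf1r and Adgre1 (F4/80) were bright at both stages, at 2131, 2195 and 1807 against 1518, 1811 and 1874 for Csf1r and 504, 415 and 328 against 257, 537 and 397 for Adgre1, and did not pass. With no filter on dim signals 7 of 20 macrophage genes were called higher. Among the 6 calls were also Cd14 and C1qc, with differences of 2.17 and 1.80 (limma adjusted p = 0.00316 and 0.00799), of which C1qc did not pass when E13.5 replicate 3 was left out (adjusted p = 0.0573). The macrophage list had 3 calls without E13.5 replicate 3 and 3 among 11 tested genes without P90 replicate 2. The share of macrophages in the rise of class I, class II and interferon-stimulated genes was not tested.

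Of 9 tested complement genes, 4 were called higher. C2, a protease of the classical pathway, gave 2064, 779 and 318 against 44.9, 35.3 and 48.7 (difference 3.81, limma adjusted p = 0.000936), and it was read through a probe set that may also read other genes, without which it was not called (adjusted p = 0.152). C1ra and C1s1, the proteases of the C1 complex, gave 87.6, 231 and 181 against 7.0, 9.09 and 8.03 and 531, 146 and 199 against 44.9, 45.1 and 59.7 (differences 2.83 and 2.03, limma adjusted p = 0.000164 and 0.00757). The count was 2 of 7 without P90 replicate 2 or P90 replicate 3, and 4 of all 10 annotated members with no filter on dim signals. None of 7 tested lymphocyte genes was called by limma, and 1 reached an unadjusted p under 0.05. The lymphocyte signals summed over 6 genes were 239.8 to 391 in the medulla and 269.9 to 351 in the ganglion, and the T-cell receptor chain gene Cd3g gave 46.9, 7.63 and 9.24 against 33.1, 32.3 and 24.5.

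**Figure D3:**
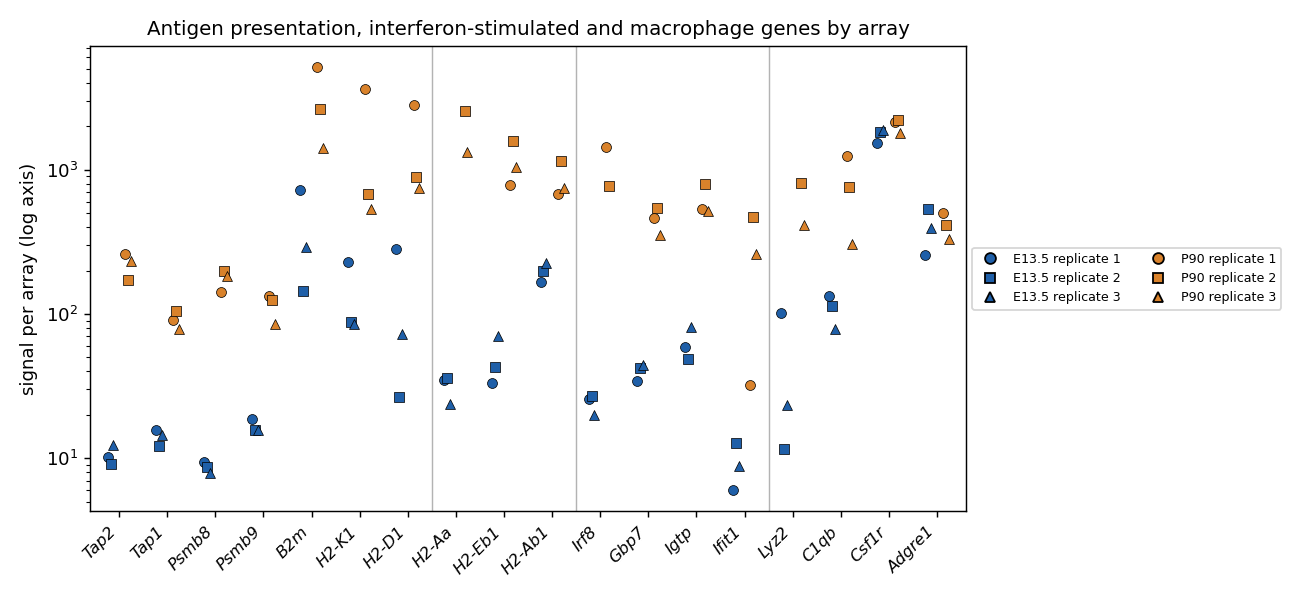
Signal per array (log axis) of class I, class II, interferon-stimulated and macrophage genes (blocks from left to right) on the E13.5 arrays (blue) and the P90 arrays (orange), with a marker shape for each replicate number; empty values are not drawn. Tap2, Psmb8 and Psmb9 sit in narrow groups that do not overlap, whereas Csf1r and Adgre1 are about as bright at both stages.

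Among the falls were many genes of neuronal identity. Of 14 tested transcription factors of sensory neurons, 7 were called lower in the medulla and 7 did not pass, with a median of -2.12. Isl2, a LIM homeobox factor of the sensory and motor lineages, gave 32.7, 48.2 and 72.2 in the medulla and 989, 750.1 and 1086 in the ganglion (difference -3.86, SE 0.32, limma adjusted p = 6.89e-05). Tlx3, which specifies glutamatergic sensory neurons, gave 11.4, 25.7 and 18.9 against 411, 348 and 301 (difference -3.42, limma adjusted p = 7.39e-05). Runx1, a factor of pain-sensing neurons, was empty on E13.5 replicate 1 and gave 893 and 1448.8 on the other ganglion arrays against 54.5, 7.07 and 13.1 in the medulla (difference -5.00, limma adjusted p = 0.000111). Of the 5 Runx1 probe sets with values, 3 were lower in mean in the medulla.

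Neurod1, a differentiation factor, gave 7.69, 12.4 and 12.2 against 81.3, 541 and 922, and Ebf2 gave 1.10, 1.03 and 1.48 against 171, 127 and 308, with differences of -3.80 and -3.58 (limma adjusted p = 0.00536 and 5.7e-05). Klf7, a zinc finger factor of developing neurons, fell by 1.94 (limma adjusted p = 0.00486). Isl1, a factor of sensory neurons and also of the adrenal medulla, split the adult samples, with signals of 88.9, 1876 and 1419.5 against 5141, 3153 and 5244. All adult arrays lay below the ganglion, replicate 1 far below the others, and the gene did not pass (limma adjusted p = 0.12). Pou4f1, the marker of sensory neurons, was not tested. Its brighter probe set was empty on all 3 ganglion arrays and gave 30.6, 38.7 and 47.3 on the adult arrays. Its other probe set was empty on E13.5 replicate 1 and gave 241.713 and 525.478 on E13.5 replicates 2 and 3. The adult arrays gave 10.037, 5.273 and 23.495 there, all below those 2 ganglion values. Too few arrays passed the filter on dim signals for that probe set to be tested. The list had 4 calls among 11 tested genes without E13.5 replicate 3, 6 of 14 without P90 replicate 1 and 5 of 11 without E13.5 replicate 2.

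Receptors and channels of sensory neurons could be read only in part, because 8 of the 18 annotated had a probe set empty on all ganglion arrays. Of 10 tested, 3 were called lower. Gfra3, the artemin receptor of pain-sensing neurons, gave 100.5, 219.6 and 119 against 1916, 697 and 1572 (difference -3.07, limma adjusted p = 0.00135). P2rx3, the ATP receptor of the same neurons, was still bright in the medulla at 879, 948 and 995 against 4795, 1910.0 and 3174 (difference -1.69, limma adjusted p = 0.0394), and its call was lost in 7 of the 9 fits that left out 1 array. The sodium channel Scn11a fell by 1.77 (limma adjusted p = 0.0144), with an adjusted p of 0.0611 without P90 replicate 3. The list had 1 call without E13.5 replicate 3 and 1 without P90 replicate 3.

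Many genes for the proteins of growing axons were called lower. Of 21 tested genes of the neuronal cytoskeleton, 11 were called lower and 10 did not pass, with a median of -2.35, and 13 had adult arrays wholly below the ganglion, against 13.9% of all genes. Tubb2b, a tubulin of newborn neurons, gave 60.7, 460.4 and 417 against 7261, 5621 and 6575 (difference -4.69, SE 0.59, limma adjusted p = 0.000517). Dpysl3, a collapsin response mediator of the growth cone, was empty on E13.5 replicate 2 and gave 5500.2 and 4284 on the other ganglion arrays against 106, 422 and 333 (difference -4.20, limma adjusted p = 0.00123). Without E13.5 replicate 3 that probe set had too few values, and Dpysl3 was read through another and not called (limma adjusted p = 0.127). Kif5a, a motor of axonal transport, gave 23.6, 180.2 and 103 against 2790.2, 601 and 2030.4 (difference -3.97, limma adjusted p = 0.00242). In all 3 genes the adult signal was lowest on P90 replicate 1.

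Stmn1, which destabilises microtubules, and Basp1, a growth cone membrane protein, were among the brightest ganglion genes at 6946, 5583 and 6768 and 6387, 5574 and 6317, and gave 644, 1409 and 1016 and 875, 573 and 449 in the medulla (differences -2.70 and -3.29, limma adjusted p = 0.000448 and 0.000138). The alpha tubulin Tuba1a fell least of those named here, at 2787, 4203 and 3775 against 9865, 10162 and 10406 (difference -1.52, limma adjusted p = 0.0029). Tubulin genes are close in sequence, so their probe sets may share signal. Of the 28 annotated genes, 12, among them Tubb3, Stmn2, Nefl and Gap43, had a probe set empty on all 3 ganglion arrays. Stmn2, a neuronal stathmin, gave 117, 591 and 431 on the adult arrays. Without E13.5 replicate 3 the list had 7 calls, without P90 replicate 1 it had 13 and without E13.5 replicate 2 it had 14, of 21 tested each time.

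Axon guidance and adhesion genes were called lower for 8 of 31 tested members. Cntn2, an adhesion molecule of early axons, gave 9.71, 8.77 and 11.1 against 366, 1289 and 1789 and was among the 10 largest falls (difference -5.22, SE 0.46, limma adjusted p = 7.39e-05). Of the 2 Cntn2 probe sets with values, only 1 was lower in mean in the medulla, and 2 more were empty on all 3 ganglion arrays. The adhesion molecule L1cam and the ephrin Efnb2 fell by 2.23 and 2.15 (limma adjusted p = 0.0385 and 0.0341), and their calls were lost in 7 and 4 of the 9 fits that left out 1 array. The list had 5 calls of 30 or 31 genes without E8.5 replicate 2, E13.5 replicate 1 or P90 replicate 3, and 2 of 30 without E13.5 replicate 3. Ncan, a brain proteoglycan of the pericellular matrix, gave 19.7, 40 and 75.1 against 1425, 1145 and 1553 (difference -4.60, limma adjusted p = 5.7e-05).

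RNA-binding proteins of neurons were called lower for 5 of 12 tested genes. Elavl2 (HuB) was empty on E13.5 replicate 2 and gave 4883 and 4155 on the others against 13.4, 179.5 and 201, and Elavl3 (HuC) gave 95.7, 592 and 382 against 2787, 2776 and 2954. Their differences were -5.39 and -3.25, and the splicing factor Rbfox1 fell by 3.11 (limma adjusted p = 0.00135, 0.00561 and 0.00364). P90 replicate 1 was again the dimmest array for Elavl2 and Elavl3. Of the 4 Elavl2 probe sets with values, 3 were lower in mean in the medulla.

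The release machinery is shared by chromaffin cells and neurons. Of 23 tested genes of synaptic vesicles and release, 2 were called lower and 21 did not pass, where 5.94% of all genes were called lower. The 2 were Cplx1, a complexin that clamps vesicle fusion, at 366, 293 and 239 against 5419, 1479 and 2993 (difference -3.22, limma adjusted p = 0.00123), and the fusion protein Stx1a, at 359, 920.0 and 683 against 3836, 3460.1 and 3966 (difference -2.59, limma adjusted p = 0.002). The calcium sensor Syt1 and the vesicle protein Syp overlapped between the stages, at 443, 2125 and 1820.2 against 3701, 1084 and 2646 for Syt1 and 551, 955 and 780.2 against 2656, 634 and 1003 for Syp. The list had 4 calls of 21 without E13.5 replicate 2, and its median of -0.74 was under that of all genes.

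Glial genes of the ganglion were called lower for 3 of 12 tested. Mbp, a myelin protein, gave 61, 259 and 206 against 3586, 636 and 1028, S100b gave 12.4, 36.5 and 37.7 against 455, 164 and 145, and Sox10, the factor of the glial lineage, gave 72.4, 116 and 137 against 394, 481 and 543. Their differences were -3.01, -2.47 and -2.0 (limma adjusted p = 0.0129, 0.00248 and 0.00332). The call of Mbp was lost with the mean of all its probe sets and also without probe sets that may read several genes (adjusted p up to 0.816). The count was 6 of 12 without E13.5 replicate 2 and 4 of 12 without P90 replicate 1.

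Embryonic transcription factors were among the largest falls. Of 15 tested Sox genes, 6 were called lower and 9 did not pass. Sox11, a factor of immature neurons and embryonic progenitors, had the largest fall among genes without an empty value, with 14.9, 31.3 and 35.5 in the medulla and 1732, 1493 and 3531 in the ganglion. Its difference was -5.64 (SE 0.42, limma adjusted p = 4.59e-05), and all 6 of its probe sets with values were lower in mean in the medulla. The probe set with the smallest difference gave 209, 284 and 248 on the adult arrays. That probe set is the brightest when only the 6 compared arrays are used, and Sox11 was then not called (difference -0.73, limma adjusted p = 0.376). Sox2, which marks satellite glia and neural progenitors, gave 5.18, 57.5 and 51.2 against 699, 783 and 1319.6 (difference -4.28, limma adjusted p = 0.000323). The Sox count was 3 of 15 without E13.5 replicate 3 or without P90 replicate 3.

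Zic1, a zinc finger factor of the dorsal neural tube and somites, gave 7.23, 5.99 and 13.5 against 726, 1163 and 1949 (difference -5.60, SE 0.42, limma adjusted p = 4.59e-05). Id4, an inhibitor of basic helix-loop-helix factors, gave 41.1, 31.5 and 88.4 against 3257, 2186 and 2041 (difference -5.23, limma adjusted p = 0.000257), and Onecut2 gave 9.01, 19.7 and 17.7 against 295, 1016 and 1589 (difference -4.69, limma adjusted p = 0.000278). The stages were far apart in all 3 genes. Nkain1, which interacts with the sodium pump, and Rimklb, an enzyme that joins glutamate to N-acetylaspartate, completed the 10 largest falls of genes without an empty value, at -5.01 and -4.63 (limma adjusted p = 0.000164 and 5.41e-05). Of the 5 Nkain1 probe sets with values, 4 were lower in mean in the medulla.

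Hox genes record the position of a cell along the body axis. Of 23 tested, 3 were called lower and 20 did not pass, where 5.94% of all genes were called lower. Hoxa9 gave 8.29, 9.49 and 9.99 against 533, 828 and 1431 (difference -5.11, SE 0.85, limma adjusted p = 0.0028), and Hoxa2 and Hoxd3, which were dim at both stages, fell by 1.41 and 1.16 (limma adjusted p = 0.0465 and 0.0284). The last 2 calls were lost in 6 and 3 of the 9 fits that left out 1 array, and the list had 1 call without E13.5 replicate 3, P90 replicate 2 or P90 replicate 3. The sections of the body axis from which the ganglia came are not given in the labels.

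Fetal growth genes fell in part. Of 6 tested genes of the embryonic growth programme, Igf2bp1, an RNA-binding protein that stabilises growth transcripts, was called lower at 10.8, 18 and 10.2 against 142, 377 and 397 (difference -3.36, limma adjusted p = 0.000444), while Hmga2 gave 203, 224 and 161 against 173, 499 and 824 and did not pass. Among 18 imprinted genes, which are read from the copy of a single parent, 3 were called lower and 2 higher. Plagl1, a regulator of this network, gave 142, 635 and 770.0 against 6238, 2501 and 4992, and the fetal growth factor Igf2 gave 293, 698 and 601 against 4724, 1194 and 3079, with differences of -3.31 and -2.34 (limma adjusted p = 0.00373 and 0.0158). Mest fell by 2.01, while Dlk1 and Impact rose by 2.38 and 1.89 (limma adjusted p = 0.0321, 0.0312 and 0.0283). Dlk1, a Notch-related protein found in adrenal cells, gave 353, 1784 and 989 against 376, 87.1 and 102, so that P90 replicate 1 overlapped the ganglion. The calls of Mest and Dlk1 were lost in 7 of the 9 fits that left out 1 array and that of Impact in 5, and that of Igf2 without E13.5 replicate 1 or E13.5 replicate 3 (adjusted p up to 0.0859). The imprinted growth inhibitor Cdkn1c gave 6849.9, 236 and 153 against 4825, 2102 and 3327, bright on P90 replicate 1 alone among the adult samples.

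**Figure D4:**
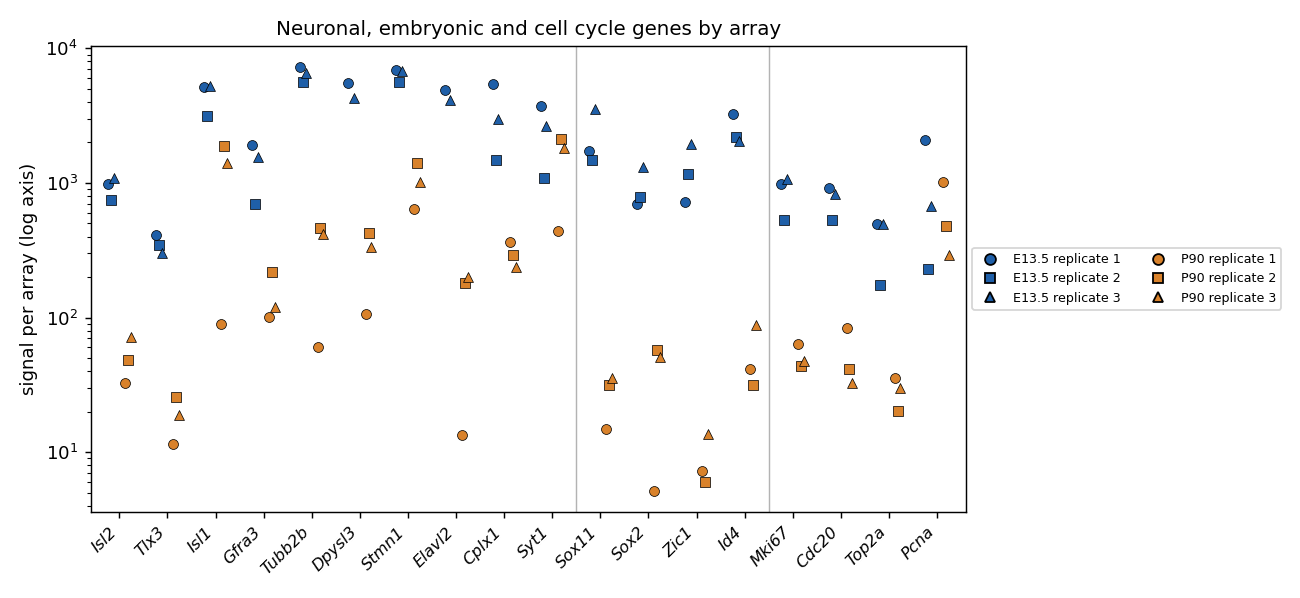
Signal per array (log axis) of neuronal genes (left), embryonic transcription factors (middle) and cell cycle genes (right) on the E13.5 arrays (blue) and the P90 arrays (orange), with a marker shape for each replicate number; empty values are not drawn. Sox11, Zic1, Isl2 and Mki67 fall on all 3 adult arrays, while Syt1 and Pcna overlap between the stages.

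Many genes of dividing cells were called lower in the medulla. Of 47 tested genes of mitosis, 23 were called lower and 24 did not pass, with a median of -1.17, and 28 had adult arrays wholly below the ganglion. Mki67, the marker of cycling cells, gave 63.8, 43.7 and 47.8 against 977, 529.8 and 1072 (difference -3.64, SE 0.38, limma adjusted p = 0.000164). Birc5, a subunit of the chromosomal passenger complex, gave 166, 53.5 and 74.2 against 2186, 758 and 1244 (difference -3.62, limma adjusted p = 0.000694), and its partner Cdca8 gave 117, 55.3 and 47.1 against 1259.8, 736 and 972 (difference -3.54, limma adjusted p = 0.000278). The stages were far apart in all 3, although Cdca8 was read through a probe set that may also read other genes, and another of its probe sets gave a difference of 0.09. Cdc20, which starts anaphase, and Top2a, which untangles chromosomes, fell by 3.53 and 3.06 (limma adjusted p = 0.000259 and 0.00158). The list had 17 to 28 calls when any 1 array was left out, 21 of 46 without P90 replicate 1 and 28 of 47 without E13.5 replicate 2.

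The bases before the mitosis genes were searched in the same way for CCAAT, the box bound by the NF-Y factor. It stood before 17 of the 21 called mitosis genes with a promoter in the table (81%), before 10 of the 16 that were not called (62.5%), and before 34.5% of all 27025 promoters. The cell cycle homology region TTTGAA stood before 8 of the 21 (38.1%), 4 of the 16 (25%) and 16.3% of all promoters. The 150 bases before the start of 3 called genes are printed along the gene, 5' to 3', with each CCAAT or its reverse complement in capitals, to show its repeats.
Cdc20, chr4:118437344-118437493, minus strand: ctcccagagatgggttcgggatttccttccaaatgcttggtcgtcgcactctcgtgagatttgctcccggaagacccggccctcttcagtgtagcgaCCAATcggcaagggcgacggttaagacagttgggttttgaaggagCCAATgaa
Top2a, chr11:99024190-99024339, minus strand: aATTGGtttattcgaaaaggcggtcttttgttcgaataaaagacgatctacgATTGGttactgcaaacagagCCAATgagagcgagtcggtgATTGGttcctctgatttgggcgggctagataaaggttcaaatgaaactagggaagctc
Cdca8, chr4:124936918-124937067, minus strand: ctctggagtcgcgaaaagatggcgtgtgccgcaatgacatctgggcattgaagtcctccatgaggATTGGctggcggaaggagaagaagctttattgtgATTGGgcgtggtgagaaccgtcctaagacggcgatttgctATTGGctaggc
The stretches of Cdc20, Top2a and Cdca8 hold 2, 4 and 3 boxes.

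Genes of DNA replication copy the genome in S phase. Of 43 tested, 7 were called lower and 36 did not pass, with a median of -0.82. Mcm5 and Mcm6, subunits of the replicative helicase, gave 112, 54.3 and 27.8 against 749, 413 and 418 and 109.8, 99.3 and 57 against 425, 328 and 519, and Rrm2, which makes deoxynucleotides in S phase, gave 89.2, 67.3 and 82.7 against 721, 359 and 647. Their differences were -2.83, -2.09 and -2.58 (limma adjusted p = 0.00213, 0.00415 and 0.00123), and these 3 calls were lost without probe sets that may read several genes. Pcna, the sliding clamp, overlapped between the stages at 1023, 477 and 291 against 2098, 230.2 and 677. The count was 12 of 43 without E13.5 replicate 2, and 3 or 4 without E8.5 replicate 2, E8.5 replicate 3, E13.5 replicate 1, E13.5 replicate 3, or any of the P90 arrays, or with no filter on dim signals. With only the 6 compared arrays Mcm5 was read through another probe set and was not called (difference -0.88, limma adjusted p = 0.242). Of 16 chromatin and DNA methylation genes, 3 were called lower: Uhrf1, which guides methylation of new DNA, and the Polycomb genes Cbx2 and Ezh2, with differences of -3.19, -2.28 and -1.57 (limma adjusted p = 0.000328, 0.00401 and 0.0338). The call of Uhrf1 was lost without E8.5 replicate 2 or E8.5 replicate 3 (limma adjusted p up to 0.559). It was also lost with the mean of all probe sets and with only probe sets that had no empty value. The call of Ezh2 was lost in 7 of the 9 fits that left out 1 array. Beside them, 2 of 53 DNA repair genes were called lower, where 5.94% of all genes were called lower. These were Parp1 and Rad54l, by 1.59 and 1.39 (limma adjusted p = 0.0305 and 0.0172). Their calls were lost in 6 and 3 of the 9 fits that left out 1 array.

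Genes of other cell types differed too. Of 18 tested mesenchyme and matrix genes, 6 were called lower, with the summed signal of 17 at 7850.1 to 22593 in the medulla and 12930.0 to 34821 in the ganglion. Fstl1 gave 269.8, 318 and 259 against 4818, 1788 and 3650.2, and fibronectin (Fn1) and the collagen chain Col1a2 fell by 3.22 and 2.46 (difference of Fstl1 -3.42, limma adjusted p = 0.000621, 0.00723 and 0.00849). Embryonic red cell RNA was present in the ganglion: the embryonic globin Hbb-y was empty on E13.5 replicate 1 and gave 7668 and 7758 on the others against 2.59, 4.55 and 35.5 in the medulla (difference -8.16, limma adjusted p = 5.41e-05), and the red cell anion exchanger Slc4a1 fell by 3.32 (limma adjusted p = 0.00252), a call lost without any 1 of the E13.5 arrays (adjusted p up to 0.125). Of 8 red cell genes these were the only calls.

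Of 18 endothelial genes, only Eng rose and only Aplnr fell, where 3.54% of all genes were called higher and 5.94% lower. Aplnr, the apelin receptor of sprouting vessels, gave 283, 44.1 and 84.5 against 1851, 1884 and 2229 (difference -4.04, limma adjusted p = 0.000665), and Eng rose by 1.05 (limma adjusted p = 0.0224), a call lost in 5 of the 9 fits that left out 1 array. The summed signal of 15 endothelial genes was 7525, 2683 and 2437 on P90 replicates 1 to 3 and 4543 to 5613 in the ganglion, so that P90 replicate 1 was the highest of all. Of 8 muscle genes, Actc1 and Mylpf fell by 2.28 and 1.05 (limma adjusted p = 0.00458 and 0.0347), the latter call being lost in 5 of the 7 such fits that tested it. The part of vessels, connective tissue, blood and muscle in the differences above was not tested.

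Stress and metabolic lists gave small counts of calls. With no filter on dim signals, 13.6% of immediate early and 10% of antioxidant genes were called higher, against 2.54% of all genes. Of 22 immediate early genes, which respond within minutes to stimulation or handling, 3 were called higher: Junb at 207, 163 and 126 against 10.8, 2.18 and 23.6, Btg2 at 625, 602 and 695 against 196, 99.9 and 152 and Egr1 as given above (differences of Junb and Btg2 2.73 and 2.03, limma adjusted p = 0.00023 and 0.00241). The count was 1 of 19 without P90 replicate 2. Of 17 antioxidant genes, the plasma glutathione peroxidase Gpx3 and the transferase Gstm1 rose by 2.09 and 2.47 (limma adjusted p = 0.0022 and 0.015), Gstm1 with an adjusted p of 0.0722 without E13.5 replicate 3. None of 39 genes of oxidative phosphorylation was called by limma, and 3 were lower at an unadjusted p under 0.05. Their summed signal was 156346, 57216 and 111139 on E13.5 replicates 1 to 3 and 130225, 70390.4 and 50424 on P90 replicates 1 to 3, lowest in the ganglion on the array with the largest Actb difference. With P90 replicate 1 and E13.5 replicate 2 both left out, 28 of the 39 were called lower. That fit called 2653 of all 13118 tested genes lower, with a median difference of -0.32 over all genes. None of 9 housekeeping genes was called, 2 were lower at an unadjusted p under 0.05, and 5 were called lower in that fit.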

How the data were processed

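The authors' deposited values are intensities, not log values, with 1 as their lowest value and 1 number for each probe set on an array. Per the submitters' processing notes, MAS5, GCOS, RMA and GCRMA were used, with no role given. How arrays were scaled to each other is not given in the sources used here. Of 405909 cells, 8048 (1.98%) were empty. Of 45101 probe sets, 34945 had 1 gene symbol in the platform annotation and were analysed, 932 had several, 9160 had none and 64 were controls. Entrez identifiers of 34741 of them were matched to the gene table, with 0 symbols changed.

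Intensities were used as log2(intensity + 16). Probe sets entered with at least 2 values per stage and, on 3 or more of the 9 arrays, an intensity above 26.1, the 40th percentile. The brightest probe set stood for each gene, which gave 13748 genes from 24013 probe sets. All 9 arrays were fitted with limma 3.58.1 in R 4.3.3 (lmFit, eBayes with a variance trend, 6 residual degrees of freedom, two-sided), with Benjamini-Hochberg adjustment over all genes, and the script was tested on simulated data. Signals are not read counts, and the small number of arrays limits precision.

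The members and the 36 gene lists were chosen with earlier results of these data known. Named genes were Pnmt, Dbh, Tap2 and Sox11, the 10 largest rises and falls among called genes without empty values whose arrays do not overlap (Riken and predicted genes passed over), the 3 most changed called members of each list in each direction, and defining members of a list. The alternatives tried were pseudocounts of 1 and 64, quantile normalization, other filters, probe set choices and variance models, only the 6 arrays compared, a replicate block, the Actb difference as covariate, a test against a 2-fold change, and leaving out each array. Leaving out P90 replicate 1 and E13.5 replicate 2 together was chosen after seeing the data.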

Additional observations from a re-analysis of the deposited data

How the results depend on the processing

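Against 487 higher and 816 lower genes as reported, quantile normalization called 781 higher, the Actb difference as covariate called 1321 lower, the 6 compared arrays alone called 299 higher and 528 lower, and a test against a 2-fold change called 94 and 169. Without both P90 replicate 1 and E13.5 replicate 2 there were 749 higher and 2653 lower. Leaving out any 1 array gave 218 to 480 higher and 329 to 1223 lower genes, with the fewest higher without P90 replicate 2 (218) and E13.5 replicate 3 (254) and the fewest lower without E13.5 replicate 3 (329), P90 replicate 3 (504) and E13.5 replicate 1 (543). The other settings stayed within 1.5 times of the reported counts. Of 122 called genes that were followed, 92 passed in every fit without 1 array that tested them, all 122 passed with the Actb covariate, 120 with quantile normalization, 66 in the 2-fold test and 100 of the 119 tested with the 6 compared arrays alone. The 19 lost there include Sox11 and Mcm5, read through another probe set, and Egr1, Igf2 and Gstm1 (adjusted p = 0.0735, 0.0566 and 0.056). The difference of Cdca8 turned to 0.0860 without probe sets that may read several genes, and that of Gal, which was not called, to 0.0132 with quantile normalization and to 0.39 without P90 replicate 1, within -0.78 to 0.39 over all fits without 1 array. The cause of these changes was not tested.

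Same-numbered samples did not deviate together in all pairs (r = 0.383, 0.186 and -0.177 for replicates 1, 2 and 3), and not every sample correlated best with its own number, so the numbers were not taken as pairs. With the replicate block, 487 genes were higher and 752 lower, and 116 of the 122 named calls passed.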

Other observations

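The E8.5 arrays, which are outside this comparison, give the earlier level of some genes that differ between ganglion and medulla. Sox11 was already bright at E8.5, with 2016, 2937 and 2958 on replicates 1 to 3, and so were Mki67, with 3159.7, 3804 and 3954, and Mcm5, with 4744, 3957 and 3665. Isl2 and Tubb2b gave 32.8, 35.1 and 52.1 and 3978, 3681 and 4072 at E8.5, each below its own gene's ganglion arrays. Among genes that were high in the adult samples, Tap2 gave 7.79, 7.44 and 7.25, Psmb8 3.77, 9.31 and 4.83 and Pnmt 30.4, 15.1 and 15.7 at E8.5, close to their low ganglion signals. Fdx1 gave 70.9, 172 and 166 and Mt1 308, 985 and 1349 at E8.5, with Mt1 on replicates 2 and 3 above every ganglion array. No test was made of these E8.5 levels, and the embryos differ from both other groups in tissue as well as age.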
